A study of Mus musculus with 6 samples.

Results

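The genes described here are 34 transcripts known from the endothelium of liver sinusoids, central veins and other vessels. They were taken by symbol from a table of 21700 genes, and all 34 were found, each in 1 row. The RNA came from biliary epithelial cells, the cells that line bile ducts, sorted by flow cytometry from livers of wild-type female C57BL/6 mice. One group was non-pregnant and the other pregnant at 8 days post coitum, with 3 libraries each. The sources used here do not name the age of the mice or the antibodies of the sorting gate. The labels leave unsaid whether each library is a different mouse. The p-values therefore reflect the spread between these libraries alone, and that spread may be technical. Levels are FPKM, that is fragments relative to exon length and library size, and changes are pregnant minus non-pregnant on the log2(FPKM + 1) scale.

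Liver sinusoids are capillaries whose endothelium is perforated and lacks a continuous basement membrane. Sinusoidal endothelial cells take up waste proteins, immune complexes and hyaluronan from blood through scavenger receptors. They respond to VEGF and angiopoietins, and near the central vein they secrete Wnt and BMP ligands that act on hepatocytes. Most of these genes are not known from bile duct cells, but a network of small vessels surrounds the ducts.

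The libraries were rich in biliary markers, and endothelial transcripts were a small part of each. Spp1, the biliary phosphoprotein osteopontin, stood between 3941 and 5941 FPKM over the 6 libraries, while the highest of the 34 endothelial genes reached 56.6 FPKM. The hepatocyte transcript Alb was also abundant, between 1973 and 2550 FPKM over the 6 libraries, and its source was not tested. Library depth lay between 25047888 and 35083751 fragments, recovered from the FPKM values and exon lengths, and non-pregnant library 2, which stands apart below, had 30188461. Non-pregnant library 2 was not lower in biliary markers, with a summed level of 7562 FPKM over 12 biliary genes against 6180 and 7066 FPKM in the other non-pregnant libraries. Across all genes, 10 of 11412 tested genes passed the limma test between the groups at an adjusted p under 0.05, which is 0.0876%.

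One library held most of the endothelial signal. In non-pregnant library 2 the 34 genes made up 0.327% of the fragments (95% exact Clopper-Pearson interval 0.325% to 0.329%, counting error only, as the labels name no molecular identifiers). In the other 5 libraries they made up between 0.0269% (interval 0.0263% to 0.0275%) in pregnant library 1 and 0.0502% (interval 0.0494% to 0.0510%) in non-pregnant library 1. Non-pregnant library 2 had the highest value for 33 of the 34 genes, compared with 15.6% of tested genes overall. The exception was Vwf. In bulk RNA, fewer cells of a type and less RNA per cell cannot be told apart.

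**Figure D1:**
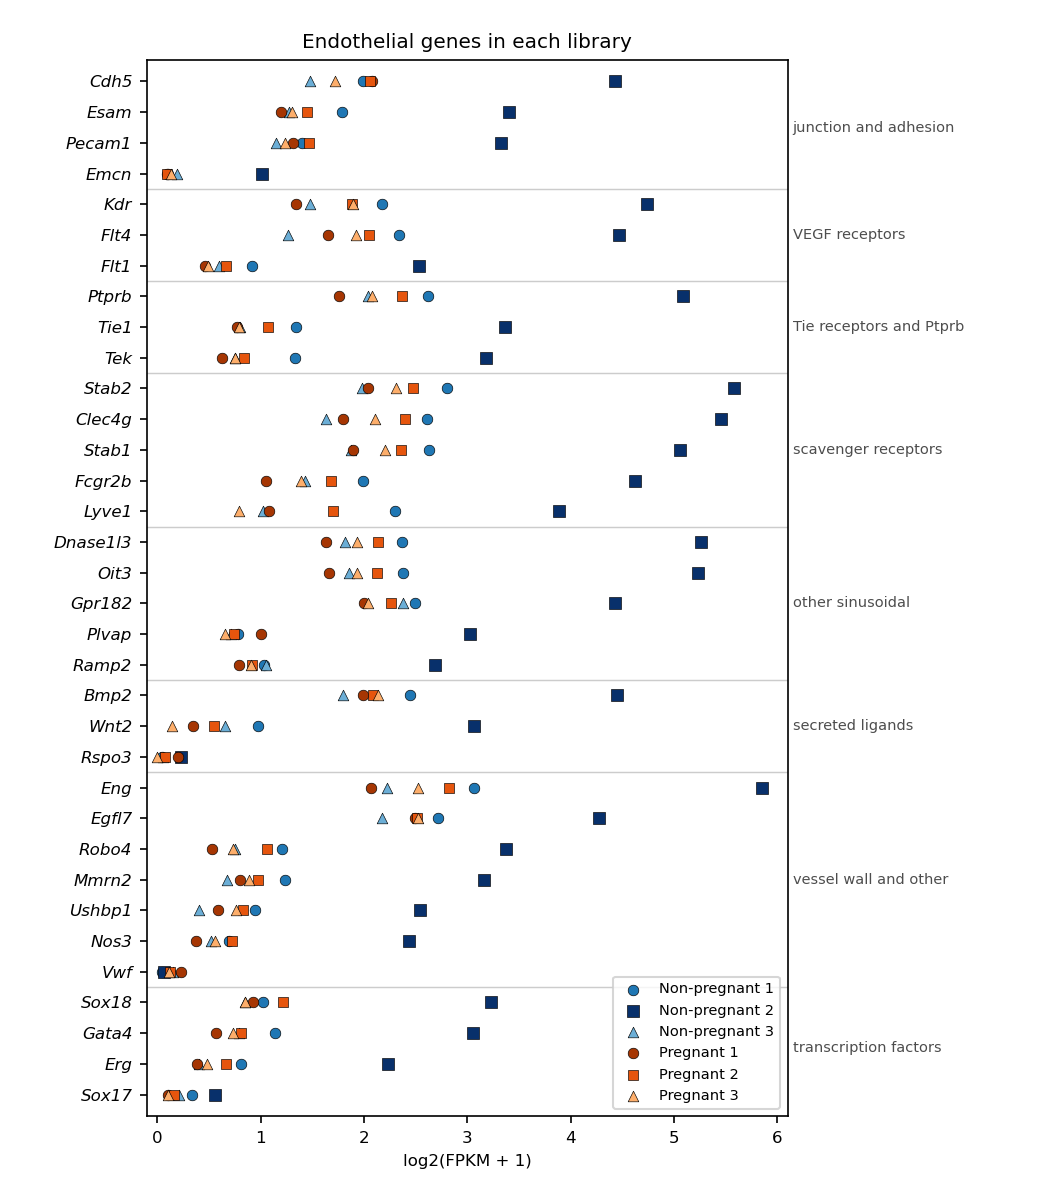
Level of each of the 34 endothelial genes as log2(FPKM + 1) in the 6 libraries, blue for non-pregnant and orange for pregnant, with genes grouped by role. Non-pregnant library 2 (dark blue squares) lies to the right of the other 5 libraries for 33 of 34 genes, and Vwf is the exception.

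Because these genes moved together between libraries, the promoters of a few of them are shown, chosen as the tested members with the highest level in their role that had an entry in the RefSeq table for GRCm38.p6, the build also called mm10. Of the 34 genes 16 had an entry, and of the junction genes only Emcn, which was too low to test. The windows are the 250 bases before the RefSeq start. GENCODE starts these genes further upstream, so 3 bases of the window of Kdr, 212 of Tie1 and 83 of Stab2 lie within its gene and are not shown. The rest is given 5′ to 3′ on the gene's strand, for the VEGF receptor Kdr (chr5:75978459-75978705, minus strand), the angiopoietin co-receptor Tie1 (chr4:118490062-118490099, minus strand) and the hyaluronan scavenger receptor Stab2 (chr10:87008026-87008192, minus strand). Capitals mark the letters AGGAAG or CGGAAG on either strand, the core bound by ETS factors, a family that includes the endothelial regulator Erg.
Kdr: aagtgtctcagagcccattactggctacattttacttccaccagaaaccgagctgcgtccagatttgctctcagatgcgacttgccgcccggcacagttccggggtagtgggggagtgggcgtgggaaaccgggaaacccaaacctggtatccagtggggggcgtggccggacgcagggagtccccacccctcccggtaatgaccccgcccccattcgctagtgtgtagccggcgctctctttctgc
Tie1: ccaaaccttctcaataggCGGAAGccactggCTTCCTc
Stab2: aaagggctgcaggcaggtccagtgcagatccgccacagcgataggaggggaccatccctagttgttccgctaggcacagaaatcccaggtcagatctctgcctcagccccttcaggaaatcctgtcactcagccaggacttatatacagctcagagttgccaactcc
In the bases shown Tie1 had 2 such matches and Stab2 and Kdr had 0. The whole window of Stab2 did hold AGGAAG on 1 of the strands, reaching into the bases not shown, and is counted below. Over the 20 whole windows of the 16 genes, AGGAAG on either strand occurred in 12, or 60%, and in 29.5% of the 32851 windows of all genes. CGGAAG occurred in 2 of the 20 and in 13.6% of all windows, the GATA core AGATAA in 1 and in 9.99%, and the SOX core ATTGTT in 4 and in 9.42%. A match is only these letters in this window and was not tested as a binding site.

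Adhesion and junction genes of endothelium were high in non-pregnant library 2 and alike elsewhere. Cdh5, which encodes VE-cadherin of endothelial adherens junctions, stood at 2.97, 20.6 and 1.78 FPKM in non-pregnant libraries 1 to 3 and at 3.22, 3.16 and 2.29 FPKM in pregnant libraries 1 to 3. The 5 libraries other than non-pregnant library 2 spanned a factor of 1.81, and the groups overlapped. Here and in what follows, values stand in the order of libraries 1 to 3, non-pregnant first. Pecam1, the adhesion molecule CD31, stood at 1.63, 9.06 and 1.22 against 1.48, 1.77 and 1.35 FPKM. Esam, an adhesion molecule of tight junctions, stood at 2.45, 9.57 and 1.43 against 1.296, 1.74 and 1.46 FPKM. For both, the highest value by far was in non-pregnant library 2, and the groups overlapped. Emcn, the sialomucin endomucin of capillaries and veins, was near 0 outside non-pregnant library 2, with 166 fragments there and between 10 and 27 in each other library.

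The 3 VEGF receptors followed the same library. Kdr (VEGFR2, chromosome 5, 75932827 to 75978458), the main signalling receptor for VEGF-A, stood at 3.51, 25.8 and 1.79 FPKM in the non-pregnant and at 1.53, 2.69 and 2.71 FPKM in the pregnant libraries. Flt4 (VEGFR3), the receptor for VEGF-C, stood at 4.05, 21.1 and 1.41 against 2.15, 3.15 and 2.80 FPKM. Flt1 (VEGFR1), which binds VEGF-A and limits its action, stood at 0.887, 4.80 and 0.515 against 0.373, 0.580 and 0.401 FPKM. In all 3, non-pregnant library 1 was the next highest and the lowest value was in non-pregnant library 3 or pregnant library 1.

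Genes of the angiopoietin system were also highest in non-pregnant library 2. Tek, which encodes the angiopoietin receptor Tie2, stood at 1.53, 8.10 and 0.687 FPKM in the non-pregnant and at 0.542, 0.790 and 0.679 FPKM in the pregnant libraries. Its partner Tie1 stood at 1.54, 9.30 and 0.739 against 0.702, 1.10 and 0.731 FPKM. Ptprb, the phosphatase VE-PTP that restrains Tek and VE-cadherin signalling, was at a higher level per length, 5.16, 33.0 and 3.11 against 2.38, 4.15 and 3.22 FPKM. In these 3 genes non-pregnant library 1 was second and pregnant library 1 lowest.

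Scavenger and endocytic receptors, which set sinusoidal endothelium apart from other vessels, reached some of the highest levels. Stab2 (chromosome 10, 86841198 to 87008025) stood at 5.98, 46.8 and 2.96 FPKM in the non-pregnant and at 3.11, 4.56 and 3.97 FPKM in the pregnant libraries. The related stabilin Stab1 stood at 5.21, 32.3 and 2.68 against 2.71, 4.12 and 3.62 FPKM. Clec4g, the C-type lectin LSECtin, stood at 5.10, 42.9 and 2.10 against 2.49, 4.26 and 3.31 FPKM. In each of the 3, the pregnant libraries lay between non-pregnant libraries 1 and 3. Fcgr2b, the Fc receptor that clears small immune complexes and is also made by B cells and macrophages, stood at 2.97, 23.6 and 1.70 against 1.07, 2.21 and 1.62 FPKM. Lyve1, a hyaluronan receptor of sinusoidal and lymphatic endothelium and of some macrophages, was the least even of the 5, at 3.93, 13.8 and 1.03 against 1.12, 2.24 and 0.731 FPKM. Its values outside non-pregnant library 2 spanned a factor of 5.38, with non-pregnant library 1 the next highest.

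Further members, several of them known from sinusoidal cells, followed the same library. Dnase1l3, a secreted DNase, stood at 4.15, 37.5 and 2.52 FPKM in the non-pregnant and at 2.09, 3.39 and 2.83 FPKM in the pregnant libraries. Oit3, a secreted protein known from sinusoidal cells, stood at 4.21, 36.6 and 2.62 against 2.17, 3.37 and 2.82 FPKM. The 2 genes had close values in every library, with pregnant library 1 lowest in both. Gpr182, a chemokine scavenging receptor, stood at 4.64, 20.5 and 4.21 against 3.01, 3.80 and 3.11 FPKM. Plvap, which forms the diaphragms of fenestrae and caveolae, stood at 0.720, 7.17 and 0.643 against 1.00, 0.668 and 0.577 FPKM. Ramp2, a subunit of the adrenomedullin receptor, stood at 1.05, 5.46 and 1.08 against 0.728, 0.882 and 0.874 FPKM. For Gpr182 and Ramp2 every pregnant value was below every non-pregnant one. Of the 3301 exon bases of Ramp2, 1103 are shared with Vps25 on the same strand, so its value is uncertain.

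Among the secreted ligands, Bmp2 was the highest, Wnt2 averaged 1.62 FPKM over all libraries but 0.474 FPKM without non-pregnant library 2, and Rspo3 was near 0. Wnt2, the Wnt ligand of central vein and sinusoidal endothelium, stood at 0.960, 7.36 and 0.579 FPKM in the non-pregnant and at 0.266, 0.459 and 0.105 FPKM in the pregnant libraries. These are 62, 502 and 46 fragments against 16, 32 and 6, and the groups did not overlap. Bmp2, which induces hepcidin in hepatocytes, stood at 4.45, 20.9 and 2.48 against 2.97, 3.25 and 3.401 FPKM. Rspo3, a central vein enhancer of Wnt signalling, had 3, 16 and 4 fragments in non-pregnant and 12, 5 and 0 in pregnant libraries. At that depth no difference in Rspo3 between the groups was detectable.

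Genes of the vessel wall and of endothelial signalling included the highest of the 34 and the least elevated in non-pregnant library 2. Eng (chromosome 2, 32646595 to 32682669), the TGF-beta and BMP co-receptor endoglin, was the highest at 7.38, 56.6 and 3.68 FPKM in the non-pregnant and at 3.20, 6.06 and 4.74 FPKM in the pregnant libraries. Egfl7, a secreted endothelial protein, was the tested gene with the smallest excess in non-pregnant library 2, at 5.58, 18.4 and 3.52 against 4.62, 4.70 and 4.73 FPKM. Its excess was 3.91 times the median of the other 5 libraries. Of the 3581 exon bases of Egfl7, 264 are shared with Gm20532 and 73 with Mir126a on the same strand. The effect of this overlap on its value was not tested. Vwf, the clotting protein of larger vessels and platelets, was at most 0.168 FPKM, with 16, 23 and 64 fragments in non-pregnant and 72, 43 and 33 in pregnant libraries. Vwf was thus highest in pregnant library 1 and did not share the pattern. The platelet genes Itga2b and Pf4 stood at 1.27 and 0.642 FPKM in non-pregnant library 2, within the range of the other 5 libraries, and their part in the level of Vwf was not tested. Robo4, a guidance receptor that stabilises vessels, stood at 1.31, 9.37 and 0.680 against 0.439, 1.09 and 0.663 FPKM. Mmrn2, a matrix protein of endothelium, stood at 1.36, 7.94 and 0.593 against 0.737, 0.961 and 0.855 FPKM. Both were highest in non-pregnant library 2 and next in non-pregnant library 1. Ushbp1, which is enriched in endothelium, stood at 0.924, 4.83 and 0.321 against 0.500, 0.771 and 0.697 FPKM. Nos3, the endothelial nitric oxide synthase, stood at 0.617, 4.43 and 0.433 against 0.300, 0.650 and 0.468 FPKM. Of the 4132 exon bases of Nos3, 1334 overlap genes on the opposite strand, and the strand setting of the counting is not given in the sources used here.

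The transcription factors were low but followed the same library. Gata4, which keeps sinusoidal endothelium from turning into continuous capillaries, stood at 1.21, 7.32 and 0.727 FPKM in the non-pregnant and at 0.481, 0.754 and 0.658 FPKM in the pregnant libraries. Sox18 stood at 1.03, 8.41 and 0.806 against 0.904, 1.32 and 0.805 FPKM. Erg, an ETS factor that maintains endothelial identity, stood at 0.755, 3.70 and 0.320 against 0.303, 0.588 and 0.399 FPKM. All 3 were at least 9 times higher in non-pregnant library 2 than at the median of the other 5. Sox17, known from arterial endothelium and also from extrahepatic biliary epithelium, stayed under 0.5 FPKM, with 36, 68 and 26 fragments in non-pregnant and 9, 17 and 9 in pregnant libraries. Its groups did not overlap. Of the 4772 exon bases of Sox17, 804 overlap Gm37587 on the opposite strand.

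The excess in non-pregnant library 2 was found in every role and varied in size between genes. The ratio of that library to the median of the other 5 had a median of 9.38 over the 34 genes, with quartiles of 6.65 and 12.3. It was at least 4 for 32 genes, and Egfl7 and Vwf were the 2 below. Among the 30 genes that averaged 1 FPKM or more, 29 reached that ratio, against 0.719% of all tested genes. Of those 30, however, 13 entered the test only through their value in non-pregnant library 2. Among genes that averaged 1 FPKM or more over the other 5 libraries, a filter added after seeing the data, 16 of 17 members reached the ratio, against 0.343% of 11370 genes. The ratio of 4 was chosen after the values were seen. By role the median ratio ran from 6.42 in the 3 secreted ligands and 6.75 in the 4 junction genes to 11.8 in the 3 genes of the Tie system and 12.4 in the 5 scavenger receptors. Wnt2 had the largest ratio, 16.03, and by fragments its rate was 15.03 times that of the other libraries combined (95% interval 12.6 to 18.1, counting error only). For Stab2 that rate ratio was 11.4 (interval 11.1 to 11.8) and for Egfl7 it was 4.02 (interval 3.78 to 4.26), so the 2 differ beyond counting error.

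**Figure D2:**
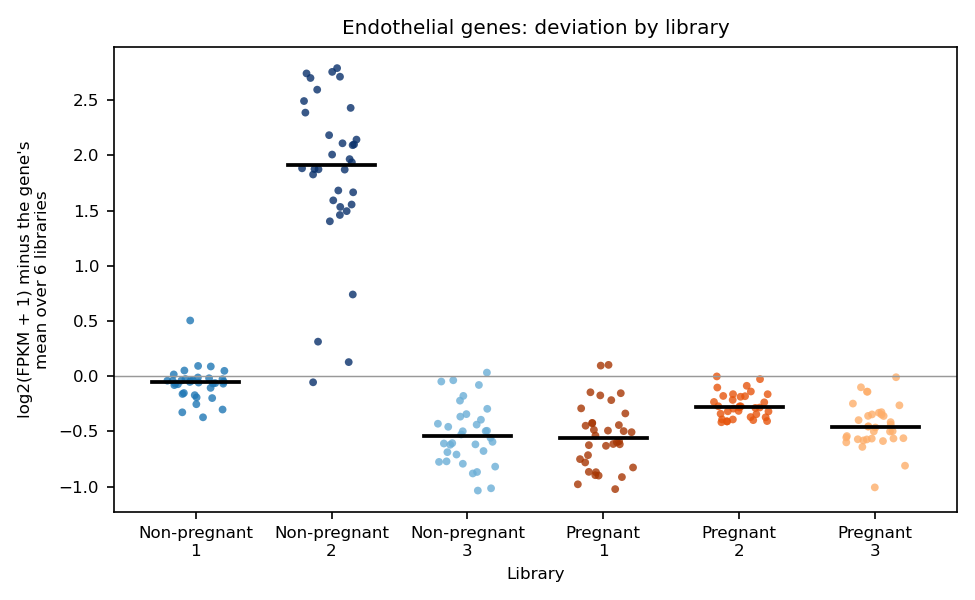
Each point is 1 of the 34 endothelial genes, as its log2(FPKM + 1) minus its own mean over the 6 libraries, and black lines are medians. The median is 1.91 in non-pregnant library 2, -0.05 in non-pregnant library 1 and between -0.56 and -0.28 in the other 4.

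Among the remaining 5 libraries most members shared the highest one, though not the full order. Non-pregnant library 1 was the highest of the 5 for 25 of 34 genes, as it was for 16.8% of all tested genes. It was above non-pregnant library 3 in 30 genes, with a median ratio of 1.71, and above pregnant library 1 in 30 genes, with a median ratio of 1.93. Within the pregnant group, 22 of 34 genes stood in the order library 2 over 3 over 1, found in 12.8% of all tested genes. Pregnant library 1 was the lowest of the 5 for 17 genes and non-pregnant library 3 for 10, and the 2 libraries were close to each other, with 19 genes higher in non-pregnant library 3 and a median ratio of 1.08. The spread within each gene was modest. The highest of the 5 libraries was less than 3 times the lowest for 29 genes, and the exceptions were Wnt2, Lyve1, Vwf and Sox17, with no ratio for Rspo3, which was at 0 in 1 library.

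Macrophage transcripts followed the order of the members among the non-pregnant but not among the pregnant libraries. The order non-pregnant library 2 over 1 over 3 was found for 30 of the 34 members, 8 of 13 Kupffer cell markers and 22.9% of all tested genes. The order pregnant library 2 over 3 over 1 was found for 0 of the 13 markers. Among pregnant libraries the order 1 over 2 over 3 was found for 12 of 13 Kupffer cell markers and for 4 of the 34 endothelial genes, and for 20.4% of all tested genes. Summed over the 13 markers the level was 81.6, 90.7 and 57.5 FPKM in non-pregnant libraries 1 to 3 and between 111 and 184 FPKM in the pregnant group. The largest parts of that sum in every library were Cd68 and Csf1r, and the groups of both overlapped. Cd68 stood at 40.3, 38.0 and 36.0 against 38.4, 37.8 and 40.5 FPKM. Csf1r stood at 34.7, 43.7 and 19.1 against 37.7, 36.4 and 29.9 FPKM. Clec4f, a defining Kupffer cell lectin, was at 1.07, 1.51 and 0.299 FPKM in non-pregnant libraries 1 to 3, each below every pregnant library (5.90 to 18.004 FPKM). Ptprc, the leukocyte antigen CD45, was at 0.0307 FPKM in non-pregnant library 2 and at most 0.410 FPKM elsewhere. The 13 blood and leukocyte markers summed to between 3.39 and 4.001 FPKM in the non-pregnant and between 4.90 and 5.75 FPKM in the pregnant group. Markers of other liver cells rose less than the members in non-pregnant library 2. The median ratio of non-pregnant library 2 to the other 5 was 1.17 over 11 tested hepatocyte genes, 1.56 over 5 stellate and mesenchymal genes and 0.941 over 11 biliary genes. With genes too low to test included, it was 1.26 over 12 hepatocyte and 1.88 over 13 stellate and mesenchymal genes. That library was the highest for 6 and 8 of these, against 15.6% of all tested genes. Dcn, the mesenchymal proteoglycan decorin, had the largest ratio of the tested stellate and mesenchymal genes, 2.38, at 2.41 FPKM in non-pregnant library 2. None of the tested markers of Kupffer cells, hepatocytes, stellate and mesenchymal cells, leukocytes or biliary cells reached a ratio of 4. Of the 13 blood and leukocyte markers only 2 were tested, Cd79a and the platelet gene Itga2b. For 11 of the 13 Kupffer cell markers the ratio was bound to be under 1. In these 11 every pregnant value exceeded every non-pregnant one, as in 9.9% of all tested genes. Among the markers too low to test Acta2, the actin of smooth muscle, reached a ratio of 4, at 0.633 FPKM in non-pregnant library 2.

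**Figure D3:**
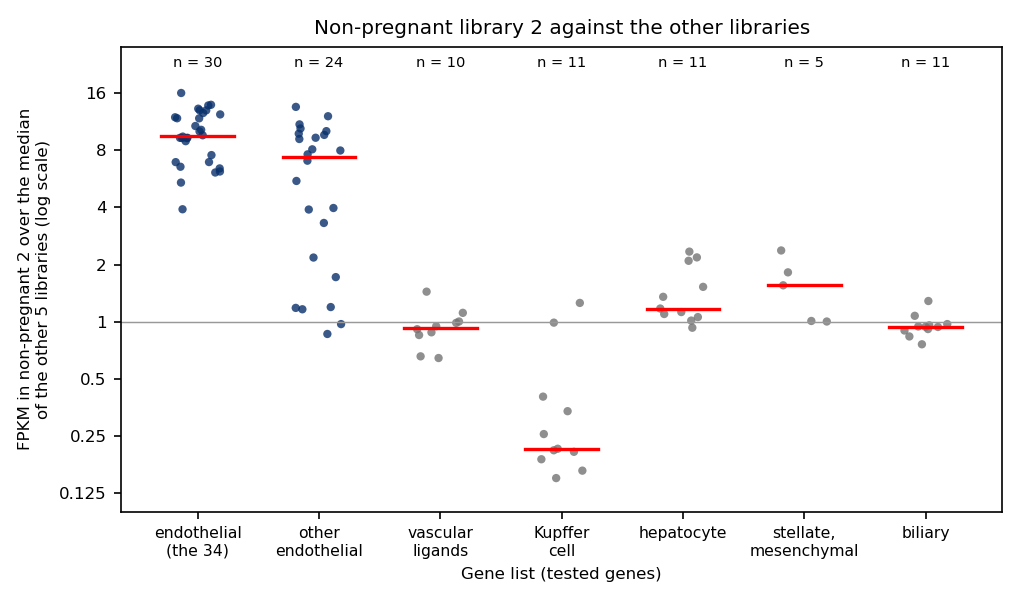
Each point is a tested gene, as its FPKM in non-pregnant library 2 over the median of the other 5 libraries on a log axis, by gene list, and red lines are list medians. The median is 9.52 for the 30 tested endothelial genes and 7.34 for 24 other endothelial genes, against 0.931 to 1.56 for the vascular ligands and the hepatocyte, stellate and biliary lists and 0.215 for Kupffer cell genes. Of the 30, 13 passed the filter of 1 FPKM only through non-pregnant library 2, as did several of the 24. Most Kupffer cell genes were higher in every pregnant library, which holds their ratio under 1.

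The question of the design is whether these transcripts differ in pregnancy, and no member passed the test. The 30 genes that averaged 1 FPKM or more were tested, and 13 of them reached that mean only through non-pregnant library 2, having a mean under 1 FPKM over the other 5. With limma across all genes, 0 of the 30 passed at an adjusted p under 0.05 and 0 had an unadjusted p under 0.05, the latter against 13.4% of all tested genes. All 30 changes were below 0, with a median of -0.96 against -0.02 over all tested genes. Over all 34 genes, 33 changes were below 0, with a median of -0.83. Below 0 were also 55.2% of all tested genes. On this scale Fcgr2b had the change farthest below 0, from 9.44 ± 12.3 to 1.63 ± 0.572 FPKM (SD, n = 3 each), a log2 change of -1.31 ± 0.724 (SE, limma adjusted p = 0.436). The smallest p was that of Wnt2, from 2.97 ± 3.81 to 0.277 ± 0.177 FPKM, a log2 change of -1.22 ± 0.557 (SE, limma adjusted p = 0.388). With a pseudocount of 0.1 FPKM the order of these 2 turned, with -2.33 for Wnt2 and -1.61 for Fcgr2b. In both, the SD of the non-pregnant group exceeded its mean.

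Without non-pregnant library 2 the differences were much smaller and went both ways. With limma the median log2 change of the 30 genes was -0.15, against -0.02 over all tested genes, with 23 below 0 and 7 above, and 54.5% of all tested genes were below 0. Each of the 30 changes was smaller in size than with all libraries. None of the 30 passed (limma adjusted p from 0.131 to 0.972), where 1.17% of all tested genes did. At an unadjusted p under 0.05 there were 2 of the 30, Gpr182 and Wnt2, against 24% of all tested genes. Cdh5 stood at 2.89 ± 0.516 FPKM in pregnancy (SD, n = 3), and its log2 change was 0.22 ± 0.177 (SE, limma adjusted p = 0.471) without that library and -0.68 ± 0.666 with it (limma adjusted p = 0.639). For Stab2 the change was -0.12 ± 0.232 (SE, limma adjusted p = 0.775) without it and -1.18 ± 0.790 with it (limma adjusted p = 0.503).

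**Figure D4:**
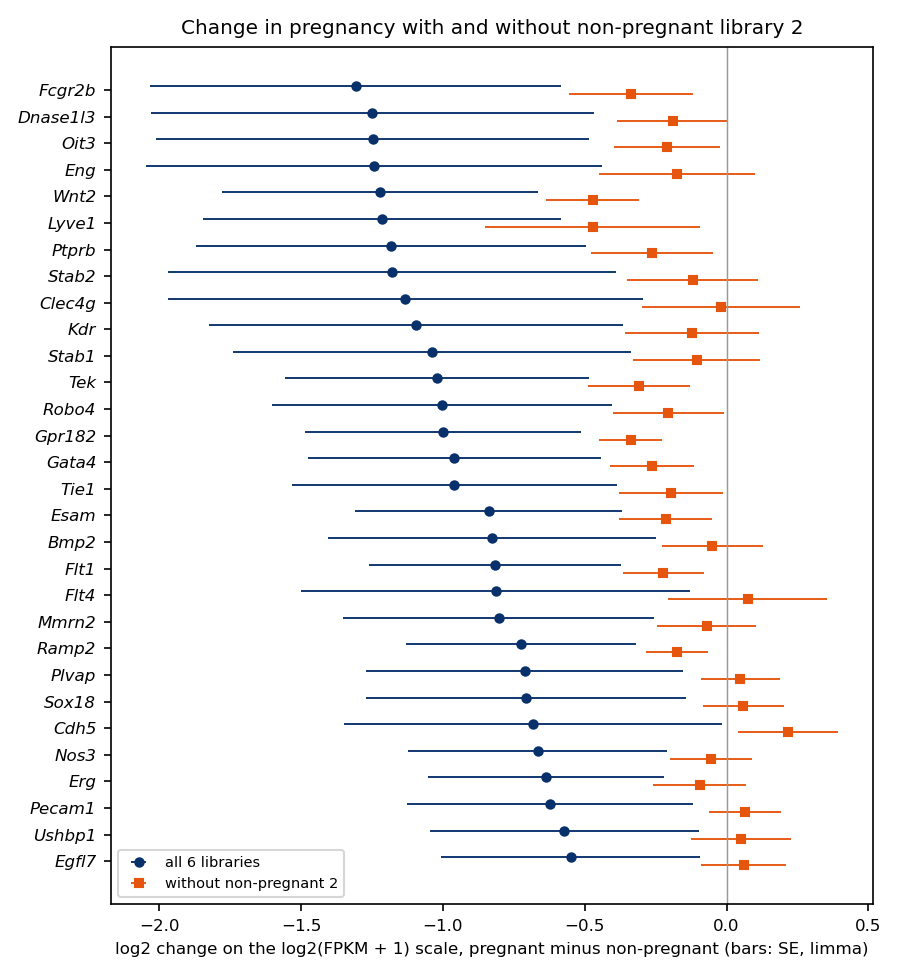
Change of each of the 30 tested endothelial genes in pregnancy on the log2(FPKM + 1) scale, with its SE from limma, over all 6 libraries (circles) and without non-pregnant library 2 (squares). The circles lie between -1.31 and -0.55 and the squares between -0.47 and 0.22.

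A few genes kept their groups apart with or without that library. Every pregnant value was below every non-pregnant one for 4 of the 34 genes, namely Wnt2, Gpr182, Ramp2 and Sox17, and above it for 0. Over all tested genes 12.2% were lower and 9.9% higher in this way, so the share of the members was near that of all genes. Without non-pregnant library 2 the same 4 genes had all 3 pregnant libraries below both others, as had 24.4% of all tested genes, and 0 were above, as had 19.4%. For Gpr182 the change was -1.001 ± 0.486 (SE, limma adjusted p = 0.405) with that library and -0.34 ± 0.111 (SE, limma adjusted p = 0.131) without it. For Wnt2 it was -0.47 ± 0.164 (SE, limma adjusted p = 0.145) without it.

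Other endothelial genes, from a list of 38, gave the same picture with some exceptions. Of 24 tested genes 0 passed in either direction with limma, 19 were below 0 and the median change was -0.60, and without non-pregnant library 2 the median was -0.00, with 12 on each side. Cd300lg, an endothelial nepmucin, stood at 2.61, 20.2 and 2.02 FPKM in the non-pregnant and at 0.988, 1.49 and 1.23 FPKM in the pregnant libraries. Gpihbp1, the capillary anchor of lipoprotein lipase, stood at 2.21, 13.9 and 1.33 against 0.661, 1.46 and 0.928 FPKM, and Thbd, the anticoagulant receptor thrombomodulin, at 0.816, 4.25 and 0.503 against 0.363, 0.435 and 0.233 FPKM. The groups of Cd300lg and Thbd did not overlap, with the pregnant values lower. Of the 38 genes, tested or not, 7 were lower and 1 higher in this way. Over all tested genes 12.2% were lower and 9.9% higher. Sox7, a SOX factor related to Sox17 and Sox18, did not have the large excess, at 2.32, 2.88 and 2.12 FPKM in the non-pregnant and at 1.32, 1.16 and 1.22 FPKM in the pregnant libraries. Its change was -0.62 ± 0.110 (SE, limma adjusted p = 0.186) and -0.53 without non-pregnant library 2 (limma adjusted p = 0.0585), and every pregnant value was below every non-pregnant one. Of the 24 genes 14 reached a ratio of 4 in non-pregnant library 2, against 0.719% of all tested genes. Several of those 14, such as Kit and Cd93, were under 1 FPKM in each other library. They entered the test only through non-pregnant library 2, which favours a high ratio. Under a ratio of 1.5 were 5 of the 24. Those 5, picked with their values in view, were Efnb2, Acvrl1, Tspan7, Ecscr and Bmp6, and Bmp6 stood between 13.4 and 25.6 FPKM over the 6 libraries.

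Vascular ligands, from a list of 19 that includes ligands of the receptors above, had no gene at a ratio of 4 in non-pregnant library 2. That library was the highest for 4 of them. These were Tgfb1 at 8.36 FPKM (ratio 1.44), and, under 1 FPKM in every library, Angpt2, another ligand of Tek, at 0.323 FPKM (ratio 3.35), Bmp10 (ratio 2.79) and Gdf2 (ratio 1.86), named with their values in view. Of the 19 genes 10 were tested, 0 passed with limma, 8 changes were above 0 and the median was 0.13. Vegfa, the ligand of Kdr and Flt1, was abundant at 186, 180 and 141 FPKM in the non-pregnant and at 223, 212 and 205 FPKM in the pregnant libraries, a log2 change of 0.35 ± 0.122 (SE, limma adjusted p = 0.325). Edn1, the vasoconstrictor endothelin-1, stood at 14.9, 12.01 and 16.4 against 23.9, 18.6 and 20.6 FPKM, a log2 change of 0.52 ± 0.131 (SE, limma adjusted p = 0.290). Angpt1, the agonist of Tek, stood at 22.5, 23.3 and 15.03 against 24.0, 24.8 and 23.2 FPKM, and Jag1, a Notch ligand, at 59.4, 71.2 and 71.3 against 73.0, 72.2 and 97.7 FPKM. For 3 of the 19, Vegfa, Edn1 and Jag1, every pregnant value was above every non-pregnant one. For 1, Angpt2, every pregnant value was below. Over all tested genes 9.9% were higher and 12.2% lower in this way. The range of the summed level of all 19 ligands was 325 to 364 FPKM in the non-pregnant and 404 to 427 FPKM in the pregnant group. Vegfa was the largest part of that sum in every library.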

How the data were processed

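The 6 libraries were analysed, 3 per group by the sample titles. The authors deposited FPKM values, 1 column per sample. Tools listed in the submitters' processing notes, without roles, are STAR 2.7.9a, HTSeq 0.13.5, DESeq2 1.30.1 and cutadapt 3.4, with the build mm10. The counting annotation and strand setting were not given in the sources used here. Per the labels' protocols, libraries were made from total RNA with ribosomal depletion. FPKM times the union exon length of GENCODE vM21 (same build) was a whole multiple of 1 step per library, within 0.01, for 98.5% of values above 0, and the multiples served as fragment numbers. Shares use the 21333 genes whose fragments were whole in all libraries.

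Values were tested as log2(FPKM + 1), with the two-sided test of limma 3.58.1 and a trended prior (R 4.3.3), on 11412 genes averaging 1 FPKM or more over the 6 libraries, a set kept when a library was left out, with Benjamini-Hochberg adjustment and a threshold of 0.05. The fit was tested on simulated data in which no library stood apart. That test cannot show how the fit performs on genes for which a library does. Tables were made with Python 3.11.15 and pandas 2.3.3. The members, gene lists and tests were chosen with earlier results of these data known, and the promoter motifs after the values were seen. Every member is named, up to 4 genes of each other list (smallest p for endothelial genes and ligands, highest level for cell type markers), and 5 genes of most similar profile. Further genes outside this rule, among them Kit, Cd93 and Acta2, were named with their values in view. Promoters were to be those of the highest member in 4 roles. Cdh5 and Ptprb had no entry in the table used, and Tie1 stands in for Ptprb. Of the cell type lists, a lymphatic and mesothelial list of 7 symbols had 0 tested genes at a ratio of 4 in non-pregnant library 2. Alternatives were another pseudocount, filters, scalings, a replicate block, robust empirical Bayes, array weights, voom on the recovered fragments and leaving out each library.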

Additional observations from a re-analysis of the deposited data

How the results depend on the processing

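No endothelial member passed under any alternative fit of the change, and the smallest adjusted p was 0.0537, under array weights. At an unadjusted p under 0.05 there were 0 members with all libraries, where 1528 of 11412 genes had such a p, and 0 with voom, where 1468 did. There were 4 with array weights (3640 genes), 10 with the replicate block (1230 genes), 25 when non-pregnant library 3 was left out (1419 genes) and 2 when non-pregnant library 2 was (2744 genes). The median log2 change of the members, -0.96, ran from -1.19 with a pseudocount of 0.1 FPKM to -0.61 with array weights, and from -1.44 without non-pregnant library 3 to -0.15 without non-pregnant library 2. Among the tested members, the alternatives run turned a direction only when non-pregnant library 2 was left out. Over the fits that left out 1 library, Pecam1 ran from -1.03 to 0.0641, Cdh5 from -1.26 to 0.218, Flt4 from -1.52 to 0.0741, Egfl7 from -0.990 to 0.0602, Sox18 from -1.13 to 0.0591, Ushbp1 from -1.02 to 0.0514 and Plvap from -1.11 to 0.0490. With a pseudocount of 0.1 FPKM the members' median deviation from the 6-library mean went from -0.05 to 0.0155 in non-pregnant library 1 and from -0.61 to -0.907 in pregnant library 1. The number of all genes called, 10, was 0 with no filter, 5 with robust empirical Bayes, 1301 with array weights and 1 with voom. It was 133 without non-pregnant library 2, 12 without pregnant library 3 and 0 without any 1 of the other 4, and the cause was not tested. Array weights called 2 other endothelial genes, Sox7 and Tspan7, and 1 ligand, Edn1. With the replicate block 13 genes and 0 members were called. Same-numbered libraries did not deviate together (correlations across genes of 0.0679, 0.0186 and -0.138), and each non-pregnant library correlated best with a pregnant library of another number, so the numbers were not read as pairs. The description of non-pregnant library 3 numbers it 4, unlike its title, so its number in the block is in doubt. Genes near 1 FPKM rest on few fragments, and the pseudocount understates their change.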

Other observations

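Beyond the listed genes, non-pregnant library 2 stood at least 4 times above the median of the other 5 libraries for 82 of 11412 tested genes, where each of the other 5 libraries did so for between 1 and 17. Of the 82 genes 29 are among the 34 endothelial genes (35.4% of the 82 and 96.7% of the 30 tested members, 13 of which entered the test only through that library). Another 14, several of which also entered only through that library, are on the list of other endothelial genes. The other 39 are on none of the lists used here. The highest level among these was that of Aqp1, a water channel known from both capillary endothelium and bile duct cells, at 12.1, 110 and 8.05 FPKM in the non-pregnant and at 6.37, 9.21 and 7.26 FPKM in the pregnant libraries. Cyp26b1, a retinoic acid hydroxylase, stood at 3.39, 14.01 and 0.9498 against 0.624, 0.998 and 1.28 FPKM. Both were picked with their values in view.

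The 5 genes outside the lists whose profile over the 6 libraries was most like the median profile of the members were Nid1, Hlx, Npr1, C1qtnf1 and Tpbgl. Pearson's r was between 0.998 and 1.00 over 6 libraries that all share non-pregnant library 2 as their extreme point, and is given as a description. Nid1, the basement membrane protein nidogen-1, stood at 1.20, 6.07 and 0.659 FPKM in the non-pregnant and at 0.643, 0.988 and 0.711 FPKM in the pregnant libraries. Npr1, a natriuretic peptide receptor of vessels, stood at 2.06, 11.6 and 1.29 against 1.15, 1.70 and 1.503 FPKM.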
